A study of Homo sapiens with 16 samples.

Results

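The ribosome footprints of MDA-LM2 cells were compared with those of the parental MDA-MB-231 cells, gene by gene and then by pathway, with secreted and membrane proteins taken separately. MDA-MB-231 is a human breast cancer line that lacks hormone receptors and is labelled poorly metastatic. MDA-LM2 is a derivative of it that was selected for growth in the lung and is labelled highly metastatic to lungs. Both lines were grown untreated in the same high-glucose medium with serum and were lysed with cycloheximide, and neither carries an engineered allele in this comparison. The series holds 16 libraries, of which the 4 footprint libraries of these lines, 2 per line, were compared. A member is a transcript with a mean ribosome-protected footprint (RPF) value of at least 10 over the 4 libraries, and 8395 of the 10799 listed transcripts qualified (77.7%). The 2404 others were not tested. There is 1 parental line and 1 derivative, so a difference between them and a difference in metastatic capacity cannot be told apart.

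A ribosome that is translating an mRNA shields a short piece of it from nuclease, and the number of such footprints on a coding sequence measures how many ribosomes are producing its protein. Footprints combine the amount of mRNA with how densely it is occupied. Proteins meant for export or for a membrane are usually marked by a hydrophobic stretch near the start, the signal peptide, which brings the translating ribosome to the endoplasmic reticulum (ER). Extracellular matrix proteins, proteases and growth factors pass that way, and they shape how carcinoma cells attach to and grow in distant tissue.

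RPF values are normalised signals on a linear scale. Their totals were 679726 and 674054 in the parental libraries and 650736 and 651838 in the MDA-LM2 libraries, and the median transcript had a value of 28.1 to 28.4. Replicates correlated at 0.963 in parental and 0.966 in MDA-LM2 cells across the genes tested (log2 of the value plus 1), a description across genes and not across independent samples. A change is given as log2 of MDA-LM2 over parental, with 1 added to each value, which understates the change of genes with low values. The changes of all 8395 genes were tested together with limma, and those with an adjusted p (Benjamini-Hochberg) below 0.05 are the calls. They numbered 1010, or 12% of the genes tested, with 420 higher in MDA-LM2 (5.00%) and 590 lower (7.03%). Without MDA-LM2 replicate 2 the count was 641. When libraries were first set to equal totals, 566 genes were called higher and 477 lower, so the surplus of falls over rises depended on the scaling. The median change over all genes was -0.01, and its quartiles were -0.25 and 0.25. The median standard error (SE) was 0.37 for genes with a mean of 10 to 20 and 0.12 for genes with a mean of 100 or more, so low genes could be called only when their change was large. The share called was 6.45% in the former and 22.7% in the latter. A list rich in genes of high value, such as glycolytic, keratin, actin or ribosomal protein genes, can therefore exceed the 12% of all genes through level alone.

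The calls depend on how the spread of a gene with 2 libraries per line is estimated. With moderation that ignores the level of the gene, 132 were called, and 126 of these were among the 1010. Leaving out each library in turn, 347 of the 1010 calls (34.4%) were kept in all 4 cases, 132 of them higher and 215 lower. Unless a sentence says otherwise, a gene described below as having risen or fallen kept its call without each library in turn. Both MDA-LM2 libraries lay above both parental ones in 25.7% of all genes tested and below both in 27.6%. A lack of overlap between the lines, given below for some called genes, is therefore a description and adds little to the call. Within 0.5 above the minimum mean of 10 lay 123 members, and 117 listed transcripts lay within 0.5 below it.

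Every listed transcript had an RNA value of at least 5.32 in every RNA library of these lines. A gene that is silent in one line is therefore not in the table, and large gains or losses of that kind are not seen here. Of the 1010 called genes, 981 (97.1%) had an RNA change of the same sign, against 73.2% of all genes tested. RNA came from the same lysates and is given here only as a description.

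The markers of the cell type were compared first. Among 11 tested markers of mesenchymal breast cancer lines, VIM, the intermediate filament protein vimentin, was the highest, with RPF values of 2140 and 1964 in parental and 1845 and 1773 in MDA-LM2 cells. CD44, a hyaluronan receptor, had 410 and 416 against 396 and 359, and EGFR, the epidermal growth factor receptor, had 324 and 327 against 322 and 320. Neither VIM, CD44 nor EGFR was called. In this list 5 members were called lower (AXL, CAV1, MET, KRT8 and KRT18) and none higher, against 7.03% and 5.00% of all genes. KRT8 and KRT18 are keratins that the line makes and not mesenchymal genes, so the count is not a measure of mesenchymal genes alone. MET and KRT8 kept the call without each library, while with equal totals 3 were called lower and 1 higher. Of 5 tested markers of luminal cells KRT19 and KRT7 were lower. ESR1, PGR, CDH1 and FOXA1, further markers of such cells, were not among the listed transcripts. Of the 13 fibroblast markers only ACTA2, COL1A1 and PDGFRB were listed, and PDGFRB had values between 0 and 6.18. Of the 14 leukocyte and endothelial markers only CD68 and KDR were listed. CD68, a lysosomal protein that many cell types make, had 144 and 145 against 129 and 132, and KDR had 6.17 and 6.18 against 9.0 and 10.4.

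To show what marks these mRNAs for the secretory pathway, the coding bases of the most hydrophobic N-terminal window of 10 residues are printed below for leading secreted and membrane proteins. They come from the annotated transcripts (GENCODE version 44, hg38) and run 5′ to 3′ on the coding strand, with the codons of hydrophobic residues (positive on the Kyte-Doolittle scale) in capitals. Of the 8179 tested transcripts with a classed protein, 1220 (14.9%) have such a window with a mean hydropathy of at least 2.0 that ends by residue 35.
COL1A1, chr17:50201460-50201489, minus strand, residues 9 to 18: CTCCTGCTCCTCTTAGCGGCCaccGCCCTC
COL6A1, chr21:45981866-45981895, plus strand, residues 6 to 15: GCTCTGCTGcccCTGCTGCTGcagGCCTGC
TNC, chr9:115090971-115091000, minus strand, residues 7 to 16: CTGTTGGCAggtGTCTTTCTTGCTTTCCTT
SRGN, chr10:69088188-69088217, plus strand, residues 11 to 20: CTTGTCCTGGCTCTTGCCCTCATCCTGGTT
TGFBI, chr5:136029074-136029103, plus strand, residues 7 to 16: CTGCTGGCTCTCGCCCTGGCTCTGGCCCTG
MMP1, chr11:102798045-102798074, minus strand, residues 7 to 16: CTGCTGCTGCTGCTGTTCtggggtGTGGTG
CLDN4, chr7:73831223-73831252, plus strand, residues 8 to 17: GTAATGggcATCGCGCTGGCCGTCCTGggc
CDH11, chr16:65004816-65004845, minus strand, residues 9 to 18: GCCGCCCTGGTGTGCCTGggcATGCTGTGC
MET, chr7:116699112-116699141, plus strand, residues 10 to 19: ggcATCCTCGTGCTCCTGTTTaccTTGGTG
In these windows 8 to 10 of the 10 codons are in capitals, and COL1A1 and TGFBI have 6 leucine codons each. The first 6 genes rose in MDA-LM2 cells and the last 3 fell, so the same kind of stretch is present on both sides of the comparison.

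**Figure D1:**
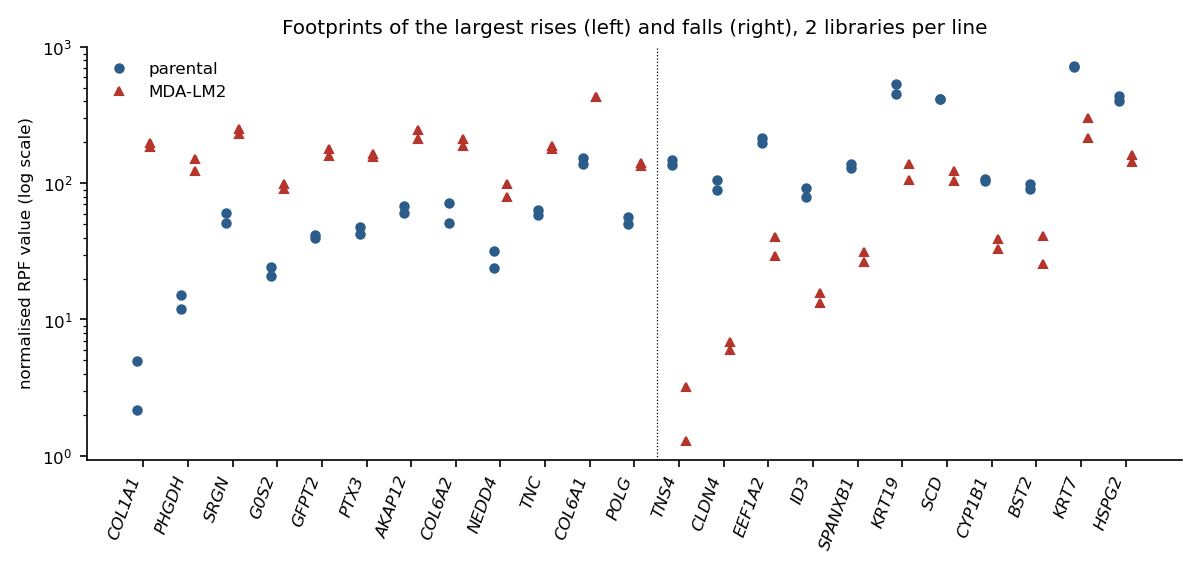
Normalised RPF value (log axis) of the 12 largest rises and 11 of the 12 largest falls among called genes with a mean of at least 50, with a point for each of the 2 parental (circles) and 2 MDA-LM2 (triangles) libraries. In every gene both libraries of one line lie above both of the other, as the choice of these genes requires, and the gap is widest for COL1A1 (4.95 and 2.15 against 198 and 185) and TNS4 (137 and 149 against 3.17 and 1.29).

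Collagens, the triple-helical proteins that give the extracellular matrix its strength, were the gene group with the highest median change. Of the 30 collagen genes looked for, 14 were listed and 13 tested, and 9 were called higher and 1 lower, with 7 of the rises and the fall kept without each library. The median change of the 13 was 0.89, against -0.01 over all genes. Their summed share of a library's footprints was 0.159% and 0.150% in parental cells and 0.301% and 0.312% in MDA-LM2 cells. When the moderation ignored level, 5 rises and no fall were called.

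COL1A1, a chain of the fibrillar type I collagen, had RPF values of 4.95 and 2.15 in parental and 198 and 185 in MDA-LM2 cells (log2 change 5.47 ± 0.28 SE, adjusted p = 2.78e-16). COL6A1, a chain of the beaded-filament type VI collagen, had 153 and 138 against 431 and 428 (1.56 ± 0.11, adjusted p = 4.57e-13). Its partner COL6A2 had 71.6 and 51.3 against 189 and 213 (1.71 ± 0.15, adjusted p = 1.52e-10). In all 3 the libraries of the lines were well apart. The partner COL6A3, encoding the longest chain, was much lower, with 4.52 and 8.61 against 25.2 and 28.8, and also rose (1.94 ± 0.38, adjusted p = 0.000521). Per 1000 codons the mean level of COL6A1 went from 142 to 418, of COL6A2 from 60.3 to 197 and of COL6A3 from 2.07 to 8.48, so the 3 chains kept their order in both lines. COL18A1, whose C-terminal fragment is endostatin, was the called fall, at 121 and 149 against 80.3 and 87.3 (-0.68 ± 0.14, adjusted p = 0.00135).

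The enzymes that modify and crosslink collagen did not share a direction. Among 18 tested, 3 were called higher and 3 lower, with 2 each kept without each library, and the median was 0.04. PLOD2, a lysyl hydroxylase of collagen telopeptides, had 75.5 and 66.0 in parental and 133 and 161 in MDA-LM2 cells (1.04 ± 0.15). P3H4, a non-catalytic partner of a collagen hydroxylation complex, had 12.8 and 7.52 against 39.0 and 35.4 (1.81 ± 0.32). The falls included COLGALT2, a collagen galactosyltransferase, with 60.1 and 43.0 against 14.1 and 11.3 (-1.93 ± 0.27), and PLOD3, a lysyl hydroxylase with glycosyltransferase activity, with 174 and 189 against 130 and 115 (-0.56 ± 0.13). Their summed share was 0.356% and 0.350% in parental and 0.371% and 0.364% in MDA-LM2 cells.

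Matrix glycoproteins and proteoglycans divided into genes that rose and genes that fell. Of 26 tested, 8 were called higher and 4 lower, with 8 and 3 kept without each library, and the median was 0.22. TNC, the matricellular protein tenascin C, had 59.0 and 64.1 in parental and 178 and 189 in MDA-LM2 cells (1.56 ± 0.14, adjusted p = 2.61e-10). SRGN, the core protein of the secreted and granule proteoglycan serglycin, had 50.9 and 61.0 against 250 and 232 (2.09 ± 0.14, adjusted p = 1.31e-13). LAMA4, a laminin chain typical of vessel and mesenchymal basement membranes, had 22.3 and 20.8 against 72.4 and 68.7 (1.67 ± 0.22). No library of one line reached the range of the other in these genes. TGFBI, a secreted adhesion protein induced by TGF-β, had 119 and 118 against 270 and 259 (1.15 ± 0.12). LAMB3, the β chain of the epithelial laminin-332, had 385 and 371 against 647 and 658 (0.79 ± 0.09). FBLN1, the matrix protein fibulin-1, was near the detection limit in parental cells, at 4.22 and 1.0, and reached 26.1 and 17.1.

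The kept falls in this group had high summed RPF values, which also grow with the length of the coding sequence. Per 1000 codons the parental level of HSPG2 was 95.5. That lies below SRGN (354) and LAMB3 (323) and above TNC (28.0), all of which rose. EFEMP1 was called lower as well (-0.76) but was not kept without each library. HSPG2, the basement membrane proteoglycan perlecan, had 438 and 401 in parental and 144 and 161 in MDA-LM2 cells (-1.46 ± 0.11, adjusted p = 3.16e-12). THBS1, the matricellular glycoprotein thrombospondin 1, had 1167 and 1184 against 733 and 761 (-0.65 ± 0.08, adjusted p = 3.6e-07). AGRN, the proteoglycan agrin, had 338 and 296 against 230 and 204 (-0.54 ± 0.11). FN1, fibronectin, was not called and had 418 and 441 against 455 and 459. The summed share of the group was 0.717% and 0.727% in parental and 0.746% and 0.779% in MDA-LM2 cells, which is close in spite of the size of the single changes.

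Extracellular proteases and their inhibitors had calls in both directions, 7 higher and 8 lower among 24 tested, with a median of -0.12. Of these, 3 rises and 5 falls were kept without each library, and with equal totals 9 were higher and 7 lower. MMP1, the interstitial collagenase, rose from 6.11 and 9.08 to 63.6 and 70.4 (3.0 ± 0.29, adjusted p = 1.24e-09). FURIN, the proprotein convertase that activates many secreted precursors, rose from 13.8 and 8.84 to 33.3 and 35.3 (1.55 ± 0.31). PLAT, the tissue plasminogen activator, had 206 in both parental libraries against 129 and 124 (-0.70 ± 0.12). PRSS23, a secreted serine protease, fell from 373 and 350 to 224 and 228 (-0.67 ± 0.10), and ADAM15, a membrane metalloprotease, from 142 and 111 to 59.0 and 67.3 (-0.98 ± 0.16). Thus a collagenase rose from a low level while several proteases of higher level fell, and the summed shares of the list overlapped between the lines (0.568% and 0.544% against 0.580% and 0.556%).

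Among growth factors and their binding proteins, 5 of 38 tested were called higher and 10 lower, with 3 and 8 kept without each library and a median of -0.08. With equal totals 8 were called higher. IGFBP2, a binding protein of insulin-like growth factors, had 1.47 and 0 in parental and 18.4 and 24.3 in the derivative, which is at least 7.12-fold higher by the means when a parental level of 3 is taken as the floor. ADM, the vasodilator peptide adrenomedullin, had 23 and 17.1 against 64.8 and 80.4 (1.81 ± 0.23), and STC1, the glycoprotein hormone stanniocalcin 1, had 22.5 and 21.8 against 57.3 and 66.3 (1.44 ± 0.22). AREG, an EGFR ligand, went the other way, from 36.1 and 45.6 to 9.31 and 12.1 (-1.84 ± 0.30). GAS6, the ligand of the AXL family of receptors, fell from 152 and 121 to 67.0 and 46.8 (-1.26 ± 0.17). SEMA3A, a secreted axon repellent, fell from 72.2 and 84.3 to 23 and 39.6 (-1.34 ± 0.22). In each of these genes the lines did not overlap, but both MDA-LM2 libraries also lay above both parental ones in 25.7% of all genes and below both in 27.6%.

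Only 7 chemokines and cytokines passed the minimum, and 2 were called higher and 1 lower. IL6, the inflammatory cytokine interleukin 6, rose from 2.57 and 7.73 to 26.2 and 23 (2.20 ± 0.43, adjusted p = 0.00053). CXCL8, the neutrophil chemokine interleukin 8, had 5.58 and 5.33 against 21.6 and 18.6 (1.71 ± 0.41, adjusted p = 0.00435), and its adjusted p was 0.0774 without MDA-LM2 replicate 1. CSF1, the macrophage growth factor, fell from 164 and 169 to 73.0 and 107 (-0.91 ± 0.15). PTX3, a soluble pattern recognition protein, and PTGS2, the prostaglandin synthase COX-2, stand in the list of NF-κB targets, of which 2 of 21 were called higher and none lower. PTX3 rose from 42.6 and 47.6 to 157 and 164 (1.81 ± 0.15, adjusted p = 6.06e-11), and PTGS2 from 4.01 and 6.38 to 21.3 and 27.8 (2.06 ± 0.40).

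**Figure D2:**
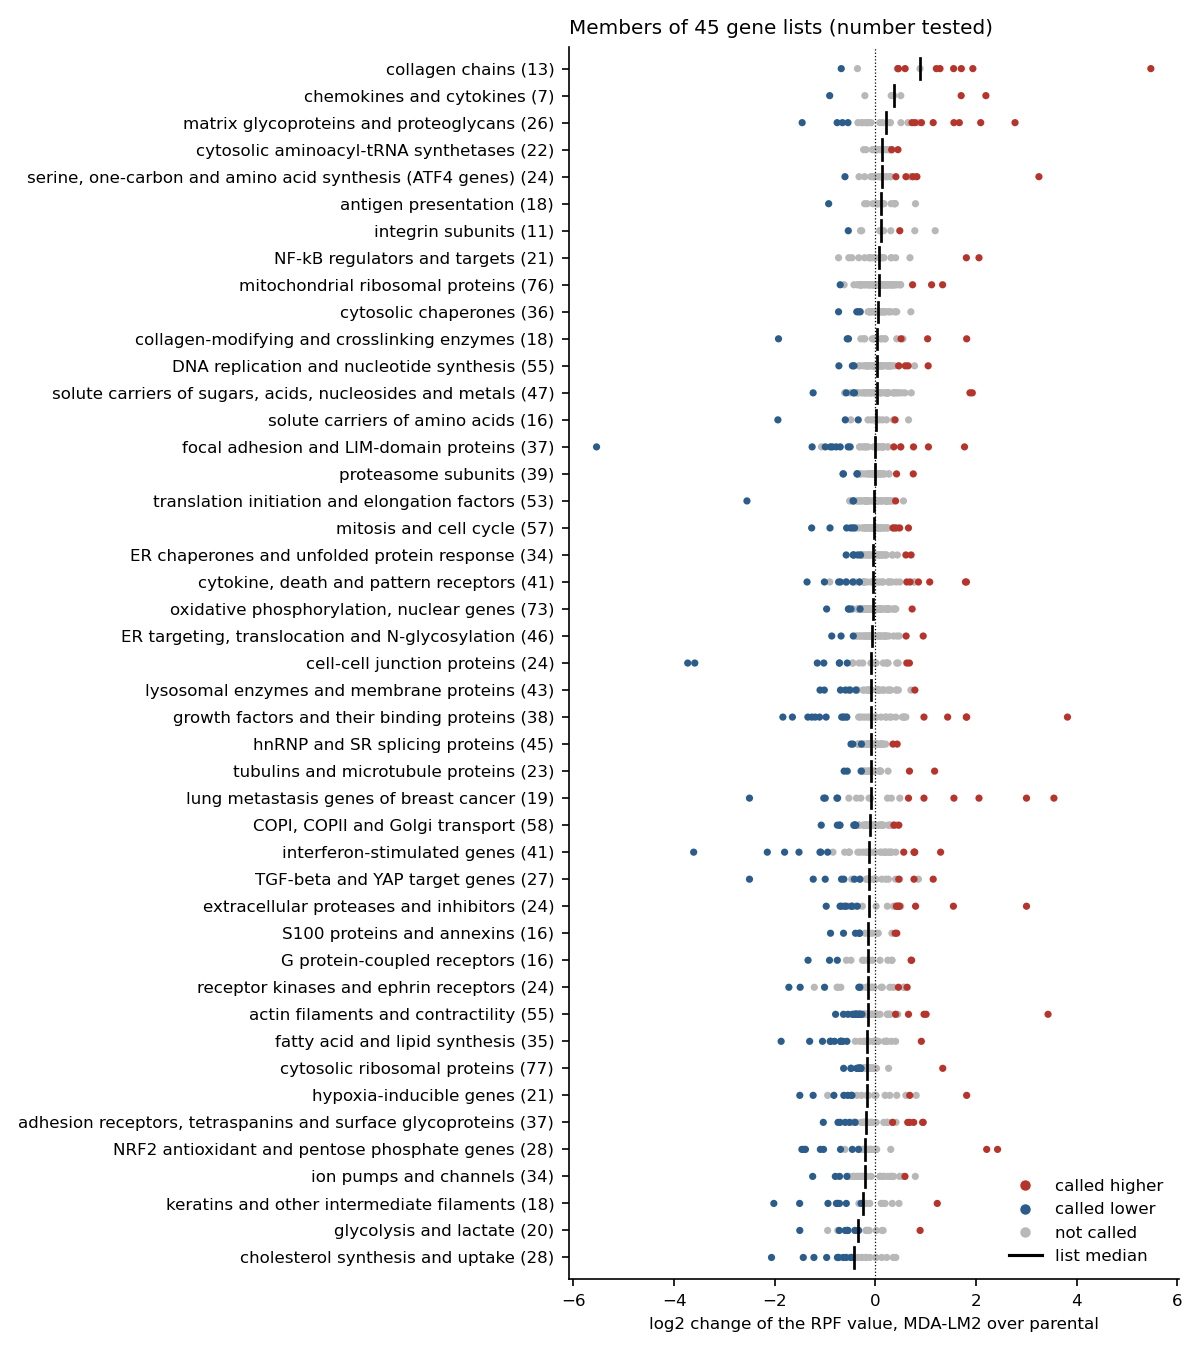
Log2 change of the RPF value in MDA-LM2 over parental cells (x axis) for each tested member of 45 gene lists (rows, with the number tested), coloured by call, with a bar at the list's median. Collagen chains stand highest with a median of 0.89 and cholesterol genes lowest with -0.42, while most lists have medians near 0 and calls on both sides.

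Proteins of cell-cell junctions were called lower more often than higher. Among 24 tested, 7 were called lower and 2 higher, with 3 and 1 kept without each library, and the median was -0.08. Of all genes 7.03% were called lower and 5.00% higher. Leaving out 1 library gave medians of this list from -0.28 to -0.002. CLDN4, a claudin of epithelial tight junctions, had 105 and 89.7 in parental and 6.82 and 6.0 in MDA-LM2 cells (-3.73 ± 0.27, adjusted p = 8.7e-13). CDH11, the mesenchymal cadherin 11, had 68.2 and 62.5 against 6.70 and 2.94 (-3.59 ± 0.34, adjusted p = 7.53e-10). JUP, the desmosomal and adherens junction protein plakoglobin, had 82.6 and 89.5 against 39.5 and 36.7 (-1.15 ± 0.18). DSG2, a desmosomal cadherin, rose from 121 and 122 to 186 and 191 (0.63 ± 0.12). The largest falls of the list were therefore those of an epithelial claudin and a mesenchymal cadherin.

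Integrins, the matrix receptors, had 1 call in each direction among 11 tested, and the median was 0.10. With equal totals 3 were called higher, and with quantile normalisation 4, with a median of 0.30. ITGA2, a collagen-binding α chain, fell from 389 and 488 to 272 and 331 (-0.54 ± 0.11, adjusted p = 0.00089). ITGB1, the common β chain, was not called and had 738 and 779 against 837 and 791. ITGAV was called higher (0.48 ± 0.14, adjusted p = 0.0178), but its adjusted p was 0.0525 and 0.089 without MDA-LM2 replicates 1 and 2 and 0.159 without parental replicate 2. Among 37 adhesion receptors, tetraspanins and surface glycoproteins, 6 were called higher and 6 lower, with a median of -0.19. Only 2 of these rises and 3 of the falls were kept without each library, and leaving out 1 library gave medians from -0.22 to -0.07. SDC1, the heparan sulphate proteoglycan syndecan 1, rose from 50.6 and 53.6 to 90.1 and 87.9 (0.76 ± 0.17), whereas CD63, a tetraspanin of late endosomes and exosomes, fell from 379 and 340 to 235 and 238 (-0.60 ± 0.10) and CD55, an inhibitor of complement, from 165 and 157 to 99.0 and 98.4 (-0.70 ± 0.13).

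Receptors of growth factors and cytokines likewise had calls both ways. Among 24 receptor kinases and ephrin receptors, 5 were called lower and 2 higher, with 3 falls and neither rise kept without each library, and with equal totals 3 were lower. MET, the receptor of hepatocyte growth factor, had 312 and 303 in parental and 134 and 173 in MDA-LM2 cells (-1.01 ± 0.12, adjusted p = 1.36e-07). ROR1, an orphan receptor that binds a Wnt ligand, had 38.6 and 39.6 against 9.01 and 13.8 (-1.72 ± 0.30). A list of 41 further receptors holds cytokine, death and pattern receptors along with others such as Wnt, semaphorin and endocytic receptors. In it 6 were called higher and 7 lower, with 4 and 2 kept without each library, and with equal totals 7 and 5. LRP1, an endocytic receptor of proteases and matrix proteins, rose from 95.6 and 96.5 to 173 and 176 (0.86 ± 0.13). FZD8, a Wnt receptor, rose from 11.5 and 12.3 to 35.4 and 53.7 (1.79 ± 0.29), and IL1RAP, the shared chain of interleukin 1 receptors, from 3.70 and 9.22 to 23.3 and 23.3 (1.81 ± 0.41). PLXND1, a semaphorin receptor, fell from 51.5 and 53.6 to 27.2 and 24.0 (-1.01 ± 0.22). Among 16 G protein-coupled receptors there were 2 rises and 3 falls called, with 1 and 3 kept. ADGRG1, an adhesion receptor, had 92.9 and 78.9 against 138 and 145 (0.72 ± 0.14), and F2RL1, the protease-activated receptor 2, had 235 and 193 against 123 and 103 (-0.91 ± 0.13).

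The share of transporters called was 25% among amino acid carriers, 12.8% among other solute carriers and 14.7% among ion pumps and channels, against 12% of all genes. Of 16 amino acid carriers 1 was called higher and 3 lower, and none of these calls was kept without each library. Of 47 other solute carriers 2 were called higher and 4 lower, or 4 and 3 with equal totals, with 1 each kept. SLC2A1, the glucose transporter GLUT1, had one of the largest losses, from 629 and 644 to 268 and 271 (-1.24 ± 0.09, adjusted p = 4.5e-12). Its mean level in MDA-LM2 cells was 42.3% of the parental mean. Among 34 ion pumps and channels, 1 was called higher and 4 lower, with 2 falls kept. ATP1B1, a β chain of sodium-potassium pumps, had 182 and 204 against 104 and 117 (-0.80 ± 0.13), and the lines did not overlap. Of 18 genes of antigen presentation, 1 was called lower, MICB, and it was not kept without each library, while with equal totals 2 were called higher as well.

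The division by hydrophobic stretches covers the 8179 tested transcripts with a classed protein and needs no gene list. A further 216 tested transcripts had no class, and 14.8% of them were called. Proteins were classed from their coding sequence as having an N-terminal stretch alone (597 tested), an N-terminal and an internal stretch (623), 1 internal stretch of 19 residues (873), 2 or more internal stretches (618) or none (5468). The classes matched some known groups better than others. In the annotation 13 of 14 listed collagen chains have an N-terminal stretch alone, all 13 listed integrins have an N-terminal and an internal stretch, and all 19 listed intermediate filament genes have none. By contrast 16 of 25 listed G protein-coupled receptors, which cross the membrane several times, were classed with an N-terminal and an internal stretch and 9 with 2 or more internal ones, and 7 of 75 cytosolic ribosomal proteins were given a stretch. Rises and falls made up 8.88% and 11.2% of the class with an N-terminal stretch alone, and 4.28% and 5.96% of the genes with no stretch. The difference between classes was not tested. In the class with an N-terminal and an internal stretch the shares were 6.58% and 10.3%. Proteins with 2 or more internal stretches had 3.56% and 9.71%.

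The classes did not move as wholes. Medians were -0.02 for an N-terminal stretch alone, -0.03 for N-terminal with internal stretches, 0.01 for 1 internal stretch, -0.03 for several and -0.01 for none. The share of all footprints on mRNAs of the class with an N-terminal stretch alone was 7.14% and 7.08% in parental and 7.21% and 7.17% in MDA-LM2 cells. For the N-terminal and internal class it was 7.88% and 7.87% against 7.73% and 7.69%. The share of these classes differed by little between the lines, while single members moved in both directions. The median mean RPF value of the N-terminal class was 42.0 and that of genes without a stretch 40.9. With a stricter hydropathy minimum for internal stretches the shares of the N-terminal class were 8.23% and 11.1%.

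**Figure D3:**
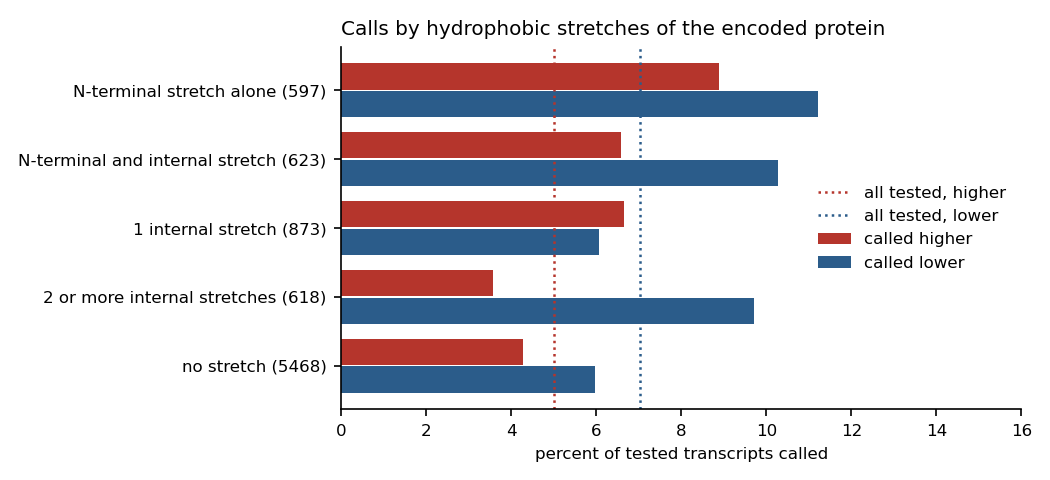
Percent of tested transcripts called higher or lower in MDA-LM2 cells (bars from 0) in 5 classes of encoded protein, with the number tested, and dotted lines at 5.00% and 7.03% for all genes tested. The class with an N-terminal stretch alone has the longest bars in both directions, 8.88% and 11.2%.

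The machinery that makes secreted proteins had median changes close to that of all genes. Of 46 genes of ER targeting, translocation and N-glycosylation, 2 were called higher and 3 lower, of 34 ER chaperone and unfolded protein response genes 2 and 5, and of 58 genes of vesicle transport 2 and 8. The shares called were 10.9%, 20.6% and 17.2% in that order, against 12% of all genes. Calls kept without each library were 1 rise and 2 falls in the first list and no rise and 1 fall in each of the others, and the falls in vesicle transport numbered 3 to 7 with 1 library left out. Their medians were -0.06, -0.04 and -0.11. SEC11A, a catalytic subunit of signal peptidase, had 53.7 and 52.4 in parental and 96.8 and 111 in MDA-LM2 cells (0.95 ± 0.16, adjusted p = 7.55e-05). SRPRA, the signal recognition particle receptor, fell from 221 and 219 to 124 and 117 (-0.87 ± 0.12, adjusted p = 3.31e-06). HYOU1, an ER chaperone, fell from 346 and 298 to 211 and 217 (-0.58 ± 0.11), and KDELR1, which returns ER proteins from the Golgi, from 236 and 227 to 138 and 144 (-0.71 ± 0.12). Of 43 lysosomal genes 1 was called higher and 6 lower, or 4 and 4 with equal totals, with 3 falls and no rise kept. CTSD, the lysosomal protease cathepsin D, had 1178 and 1030 against 572 and 519 (-1.02 ± 0.09, adjusted p = 1.33e-10), and CTSZ, cathepsin Z, had 168 and 135 against 98.8 and 87.3 (-0.69 ± 0.14).

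Among cytoskeletal genes, several keratins fell. Of 18 keratins and other intermediate filament genes tested, 8 were called lower and 1 higher, with 6 falls and no rise kept without each library, and their median was -0.25. The share of footprints was 1.18% and 1.17% in parental and 0.926% and 0.916% in MDA-LM2 cells. KRT19, a keratin of simple epithelia, had 535 and 456 against 138 and 106 (-2.02 ± 0.12, adjusted p = 1.18e-14). KRT7, also of simple epithelia, had 732 and 723 against 304 and 215 (-1.51 ± 0.11, adjusted p = 2.34e-12). KRT8, the type II partner in such epithelia, had 769 and 708 against 456 and 407 (-0.77 ± 0.09, adjusted p = 1.44e-07). For all 3 the lines did not overlap. KRT80, a further type II keratin, fell from 128 and 129 to 65.7 and 66.8 (-0.94 ± 0.15). Only 2 of the falls were called when moderation ignored level.

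Actin and focal adhesion genes held some of the largest single changes. Among 55 genes of actin filaments and contractility, 16 were called lower and 5 higher, but with equal totals 10 and 6 and with quantile normalisation 6 each, and 3 falls and 4 rises were kept without each library. LCP1, the actin bundler L-plastin of blood cells, rose from 2.56 and 5.00 to 47.9 and 49.8 (3.43 ± 0.37, adjusted p = 1.49e-08). FSCN1, the bundler fascin of cell protrusions, rose from 107 and 99.4 to 182 and 146 (0.66 ± 0.14), and GSN, the severing protein gelsolin, fell from 125 and 127 to 71.7 and 72.9 (-0.79 ± 0.15). Of 37 focal adhesion and LIM-domain genes, 9 were called lower and 5 higher, with 7 falls and no rise kept. TNS4, a tensin of focal adhesions, had 137 and 149 against 3.17 and 1.29 (-5.54 ± 0.32, adjusted p = 6.17e-15), the largest fall of all. AKAP12, a scaffold for protein kinases at the membrane, was among the largest rises, from 67.8 and 61.1 to 211 and 245 (1.81 ± 0.14). TUBB6, a β-tubulin, rose from 117 and 134 to 278 and 292 (1.18 ± 0.12), while TUBB3 fell from 182 and 170 to 104 and 125 (-0.62 ± 0.13).

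Cholesterol genes had the lowest median of the 45 lists. Of 28 tested, 11 were called lower and none higher, with 8 kept without each library, and the median was -0.42. By limma no member had a rise at an unadjusted p under 0.05 either, and the highest change of the list was 0.41. The summed share was 0.498% and 0.508% in parental and 0.362% and 0.353% in MDA-LM2 cells. SREBF1, the transcription factor that drives lipid synthesis genes, had 252 and 251 against 103 and 111 (-1.22 ± 0.12, adjusted p = 2.71e-09). INSIG1, which retains the SREBP complex in the ER, had 99.7 and 103 against 47.8 and 28.4 (-1.43 ± 0.20). Both regulators were clearly apart between the lines. DHCR7, the last enzyme of cholesterol synthesis, had 235 and 222 against 119 and 113 (-0.97 ± 0.12). With moderation that ignores level 2 falls were called.

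Several enzymes of fatty acid and lipid synthesis fell as well, with 11 of 35 called lower and 1 higher and 8 of the falls kept without each library. Their share went from 0.822% and 0.848% to 0.582% and 0.575%, and their median was -0.17. FASN, the fatty acid synthase, had 1417 and 1460 in parental and 561 and 602 in MDA-LM2 cells (-1.31 ± 0.08, adjusted p = 4.66e-14). It was the largest single loss of footprints in the list of lipid genes. SCD, the desaturase that makes monounsaturated fatty acids, had 420 and 418 against 123 and 105 (-1.87 ± 0.11). ACSL5, which activates long-chain fatty acids, had 161 and 181 against 90.3 and 91.7 (-0.90 ± 0.13). Here too 2 falls were called when moderation ignored level.

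Several glycolytic enzymes fell too. Of 20 genes tested, 9 were called lower and 1 higher, with 6 and 1 kept without each library, and the median was -0.34. With quantile normalisation 7 were called lower and 1 higher, and the median was -0.175. Their share was 1.45% and 1.41% in parental and 1.19% and 1.14% in MDA-LM2 cells. ENO1, the abundant enolase, had 1621 and 1515 against 1111 and 1036 (-0.55 ± 0.08, adjusted p = 5.78e-06). PGK1, phosphoglycerate kinase, had 799 and 839 against 533 and 548 (-0.60 ± 0.09, adjusted p = 6.06e-06), and TPI1, triosephosphate isomerase, had 595 and 601 against 418 and 395 (-0.56 ± 0.09). For each of these 3 enzymes both MDA-LM2 libraries were lower. GAPDH, with 1887 and 1648 against 1419 and 1382 (-0.33 ± 0.08, adjusted p = 0.00382), was not kept without parental replicate 1, where its adjusted p was 0.133. No member was called in either direction when moderation ignored level. MINPP1, a phosphatase that acts on inositol polyphosphates and bisphosphoglycerate, was the rise, from 47.2 and 46.9 to 85.8 and 90.3 (0.89 ± 0.17).

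Genes of serine, one-carbon and amino acid synthesis had more rises than falls. Of 24 tested genes, 5 were called higher and 1 lower, 4 of the rises were kept without each library, and the median was 0.13. Their share was 0.289% and 0.282% in parental and 0.353% and 0.347% in MDA-LM2 cells. PHGDH, the first enzyme of serine synthesis, had 15.2 and 11.9 against 152 and 123 (3.25 ± 0.21, adjusted p = 7.75e-14). PSAT1, the next enzyme of that pathway, had 160 and 162 against 235 and 258 (0.61 ± 0.12, adjusted p = 0.000327). ATF4, the transcription factor of the amino acid response, had 36.2 and 45.9 against 71.9 and 74.0 (0.83 ± 0.19, adjusted p = 0.00269). In each the lines did not overlap, and the change of PHGDH was far larger than the others. Only 1 rise was called when moderation ignored level. GFPT2, which makes glucosamine-6-phosphate for glycosylation, belongs to no list and was among the largest rises, from 39.9 and 42.0 to 180 and 159 (2.02 ± 0.15). So was G0S2, an inhibitor of the lipase that opens fat droplets, from 24.3 and 20.8 to 98.6 and 90.3 (2.02 ± 0.20).

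Antioxidant and pentose phosphate genes controlled by NRF2 had 8 falls and 2 rises called among 28 tested, with 5 and 2 kept, and a median of -0.21. The 2 chains of ferritin, which stores iron, fell together. FTL had 97.2 and 114 in parental and 38.7 in both MDA-LM2 libraries (-1.42 ± 0.17, adjusted p = 2.41e-07), and FTH1 had 84.4 and 108 against 30.9 and 41.6 (-1.39 ± 0.19, adjusted p = 2.09e-06). HMOX1, the haem oxygenase that releases iron, had 35.7 and 35.1 against 14.3 and 18 (-1.09 ± 0.28). The rises were aldo-keto reductases of steroids and carbonyls. AKR1C3 had 7.90 and 14.4 against 50.2 and 56.3 (2.21 ± 0.29), and AKR1C1 had 4.19 and 2.42 against 23 and 20.4 (2.43 ± 0.45). AKR1C1 and AKR1C3 are close relatives, so reads could be split between them. Of 73 nuclear genes of oxidative phosphorylation 1 was called higher and 5 lower (8.22%, against 12% of all genes). None of these calls was kept without each library.

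**Figure D4:**
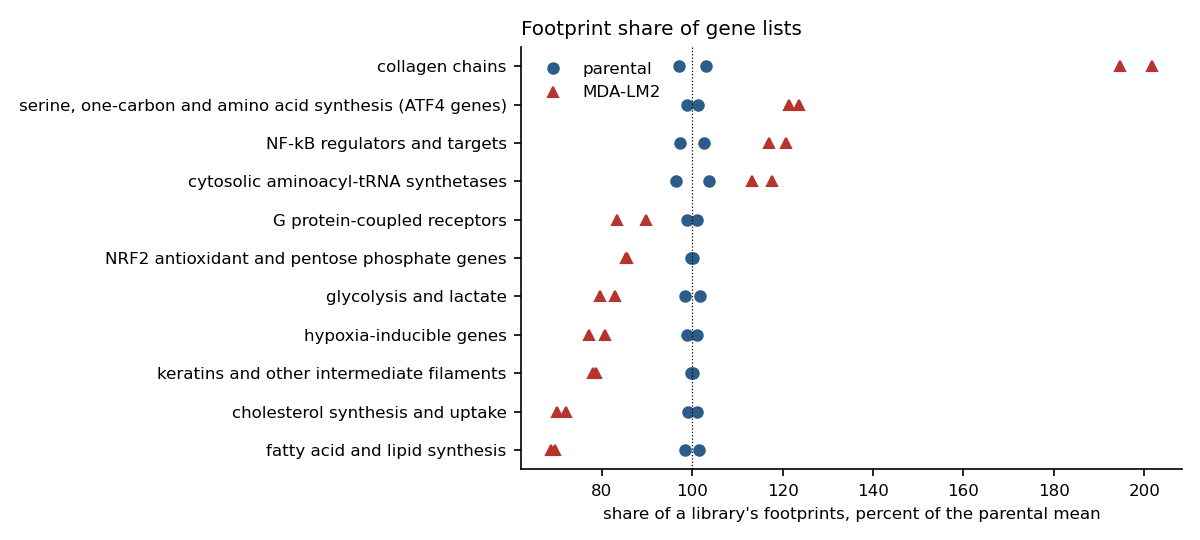
Share of a library's footprints taken by 11 gene lists, as a percent of the parental mean of that list, for the 2 parental (circles) and 2 MDA-LM2 (triangles) libraries. These are the lists without overlap between the lines whose shares differed most. Collagen chains had about 2 times the parental share (0.301% and 0.312% against 0.159% and 0.150%), and fatty acid genes the lowest (0.582% and 0.575% against 0.822% and 0.848%).

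Ribosomal protein genes, which encode parts of the ribosome itself, had small changes. Of 77 cytosolic ribosomal protein genes, 14 were called lower and 1 higher, and 2 falls and the rise were kept without each library. In 55 of them both MDA-LM2 libraries lay below both parental ones, against 27.6% of all genes, and 3 of 77 changes were above 0. These counts moved with the scaling, since 9 changes were above 0 with equal totals and 19 with quantile normalisation, and 5 and 3 falls were then called. Their share of footprints was 4.24% and 4.01% in parental and 3.88% and 3.6% in MDA-LM2 cells. RPS3, a protein of the small subunit, had 721 and 649 against 488 and 491 (-0.48 ± 0.09, adjusted p = 0.00029), and RPL28, of the large subunit, had 267 and 240 against 178 and 150 (-0.63 ± 0.12). RPL22L1, a paralogue of RPL22, was the rise, from 36.5 and 34.8 to 88.4 and 95.0 (1.34 ± 0.18, adjusted p = 1.65e-06). Ribosomal proteins have many processed pseudogenes, and how the counting treated reads shared with them is not stated.

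Among 53 initiation and elongation factors, 3 were called lower and 1 higher (7.55%, against 12% of all genes), with 1 fall kept. EEF1A2, the form of the elongation factor eEF1A made chiefly in muscle and neurons, had 198 and 216 in parental and 40.5 and 29.2 in MDA-LM2 cells (-2.55 ± 0.16, adjusted p = 4.82e-14). The list of 22 aminoacyl-tRNA synthetases and their cofactors had a median of 0.14, with 17 changes above 0. Of these 2 were called higher, and neither was kept without each library, while 6 were called with equal totals. The share was 0.622% and 0.669% against 0.731% and 0.760%. Of 76 mitochondrial ribosomal protein genes 3 were called higher and 1 lower, of 39 proteasome genes 2 and 4, of 36 cytosolic chaperones none and 4, and of 45 splicing factors 2 and 3. The shares called were 5.26%, 15.4%, 11.1% and 11.1% in that order, against 12% of all genes. Without each library 2 rises were kept among mitochondrial ribosomal proteins, 1 rise and 1 fall among proteasome genes, and 1 fall each among chaperones and splicing factors.

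Calls among cell division genes went both ways, at shares near or somewhat above that of all genes. Of 55 genes of DNA replication, 4 were called higher and 3 lower (12.7%), and of 57 genes of mitosis and the cell cycle 4 and 6 (17.5%). Of all genes 12% were called. No rise and 2 falls were kept in the first list and 1 rise and 2 falls in the second. PRC1, a microtubule crosslinker of the central spindle, rose from 221 and 232 to 327 and 391 (0.66 ± 0.11), and ANLN, an actin-binding protein of the cleavage furrow, fell from 637 and 651 to 423 and 444 (-0.57 ± 0.09). MCM7, a subunit of the replicative helicase, fell from 532 and 513 to 380 and 381 (-0.46 ± 0.09).

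Signalling responses were followed through lists of their target genes. Of 41 interferon-stimulated genes 7 were called lower and 5 higher, and 6 falls and no rise were kept without each library. IFI27, a small mitochondrial and nuclear envelope protein, fell from 17.8 and 23.2 to 0 and 2.06. BST2, the tetherin that holds budding viruses, had 91.1 and 98.2 against 41.3 and 25.4 (-1.52 ± 0.20, adjusted p = 1.15e-06), and OASL, a relative of the oligoadenylate synthetases, had 21.0 and 22.2 against 5.65 and 5.28 (-1.80 ± 0.40). Of 27 target genes of TGF-β and YAP, 7 were called lower and 3 higher, or 4 each with equal totals, with 3 and 2 kept. ANKRD1, a common readout of YAP, fell from 518 and 467 to 226 and 192 (-1.24 ± 0.11, adjusted p = 7.92e-11), and ID3, an inhibitor of helix-loop-helix factors, from 93.1 and 79.0 to 13.2 and 15.6 (-2.50 ± 0.23, adjusted p = 4.23e-10). ID1, its relative, fell from 219 and 252 to 122 and 113 (-1.0 ± 0.12). Hypoxia-inducible genes, of which 21 were tested, had 7 falls and 2 rises called, with 3 and 1 kept and 4 rises with equal totals, and their share was 0.362% and 0.370% against 0.283% and 0.295%. SLC2A1 belongs to that list too. TGFBI, described above with the matrix genes, is a TGF-β target and rose.

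A list of genes tied to lung metastasis of breast cancer was split. It was drawn from work on this pair of lines and is not independent of them. Of 19 tested, 6 were called higher and 5 lower, with 5 and 3 kept, and the median was -0.09. MMP1, TNC, PTGS2, FSCN1 and KYNU were the kept rises, and ID1, ID3 and KRT81 the kept falls. KYNU, kynureninase of tryptophan breakdown, went from 2.61 and 2.11 to 37.4 and 39.0. The summed shares of the list overlapped between the lines.

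Genes called higher took 4.10% and 4.23% of the footprints in parental and 6.83% and 7.12% in MDA-LM2 cells, and genes called lower took 17.1% and 16.8% against 11.9% and 11.8%. The genes were called from these same libraries, so the direction of both differences follows from the choice, and only their size is described. Ranked by footprints gained in place of log2 change, the 10 largest gains held COL1A1, COL6A1, SRGN, AKAP12 and LAMB3, described above. They also held TGM2, a transglutaminase that crosslinks proteins inside and outside the cell, from 314 and 282 to 582 and 544 (0.92 ± 0.10, adjusted p = 1.35e-08). ACTN1, the actin crosslinker α-actinin 1, went from 637 and 573 to 796 and 801 (0.40 ± 0.09), and HUWE1, a large ubiquitin ligase, from 360 and 324 to 475 and 566 (0.60 ± 0.10). The losses were led by FASN, whose mean fell by 857, and included CTSD, ENO1, KRT7, THBS1, KRT19 and SLC2A1. In each of these the MDA-LM2 libraries were both lower.

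The called genes were unevenly spread over the chromosomes. On chromosome 7, 80 of 372 tested genes were called lower (21.5%) and 7 higher (1.88%), with a median of -0.31. On chromosome 15, 52 of 241 were called higher (21.6%) and 5 lower (2.07%), with a median of 0.28. Chromosome 18 had a median of 0.32, with 8 of 95 called higher and 1 lower, and chromosome 10 had 43 of 331 called higher (13%). The median RNA change was -0.38 on chromosome 7, 0.24 on chromosome 15 and 0.27 on chromosome 18. Away from chromosomes 7, 15 and 18, 4.59% of 7687 genes were called higher and 6.56% lower. These are most of the genes tested, so shares close to those of all genes follow. They still include chromosome 10 and the stretches of chromosomes 1 and X described below, so regional shifts are not removed from these shares. The number of DNA copies was not measured here, so its part in these values was not tested.

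Within chromosomes, neighbouring genes had median changes of one sign over long stretches. The tested genes were taken in windows of 25 neighbours, 318 in all. All 14 windows of chromosome 7 had a median below 0 and all 9 of chromosome 15 had one above 0. On chromosome 15 the window from ZNF592 to HDDC3 (chr15:84782654-90932549, hg38) had a median of 0.82, with 25 of 25 genes above 0 and 16 called higher. It holds FURIN, POLG, SEMA4B, MRPL46 and MRPS11, all rises, and IQGAP1. POLG, the mitochondrial DNA polymerase, had 57.0 and 50.5 in parental and 135 and 140 in MDA-LM2 cells (1.35 ± 0.15, adjusted p = 5.52e-08). SEMA4B, a transmembrane semaphorin, had 57.5 and 60 against 129 and 121 (1.08 ± 0.15), and MRPS11, a mitochondrial ribosomal protein, had 42.0 and 26.9 against 72.3 and 76.0 (1.12 ± 0.21). The window before it, from FBXO22 to SEC11A, had a median of 0.54 and 11 called rises, among them that of SEC11A and that of the proteasome subunit PSMA4.

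A further run lay on the short arm of chromosome 1. Its first 14 of 35 windows, from NOC2L to ANKRD13C, held 350 genes, of which 69 were called lower and 2 higher, and every one of these window medians was below 0 (-0.51 to -0.02). HSPG2, AGRN, ID3 and ENO1 are among the genes in that run. On the X chromosome the window from GPKOW to SPIN4 had a median of 0.53 and 12 called rises, HUWE1 among them, while 7 of the 10 X windows were below 0. On chromosome 7 the window from CCT6A to GTF2IRD1, which holds CLDN4, had a median of -0.45 and 10 called falls. RNA medians of these windows were 0.93, 0.64, 0.60 and -0.51 in the order of the windows named for chromosomes 15, X and 7. Some list counts include genes of these stretches, since 3 of the 4 called falls among cytosolic chaperones and 4 of the 9 among focal adhesion genes were on chromosome 7. No tested collagen, keratin or glycolytic gene was on chromosome 7, but other shifted stretches hold some of them. KRT7, KRT8 and KRT18 lie in the window from LIMA1 to MFSD5 on chromosome 12. It had a median of -0.35, with 11 genes called lower and 2 higher. ENO1 is a glycolytic gene of the chromosome 1 run. The proteoglycan gene SRGN lies in the window from IPMK to SUPV3L1 on chromosome 10, which had a median of 0.34, with 10 genes called higher and 0 lower. The single changes of HSPG2, ID3, CLDN4 and FURIN were larger than the median of the window around them. These genes were named for the size of their change, so such a gap follows from the choice. The part of the stretch in each change was not tested.

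**Figure D5:**
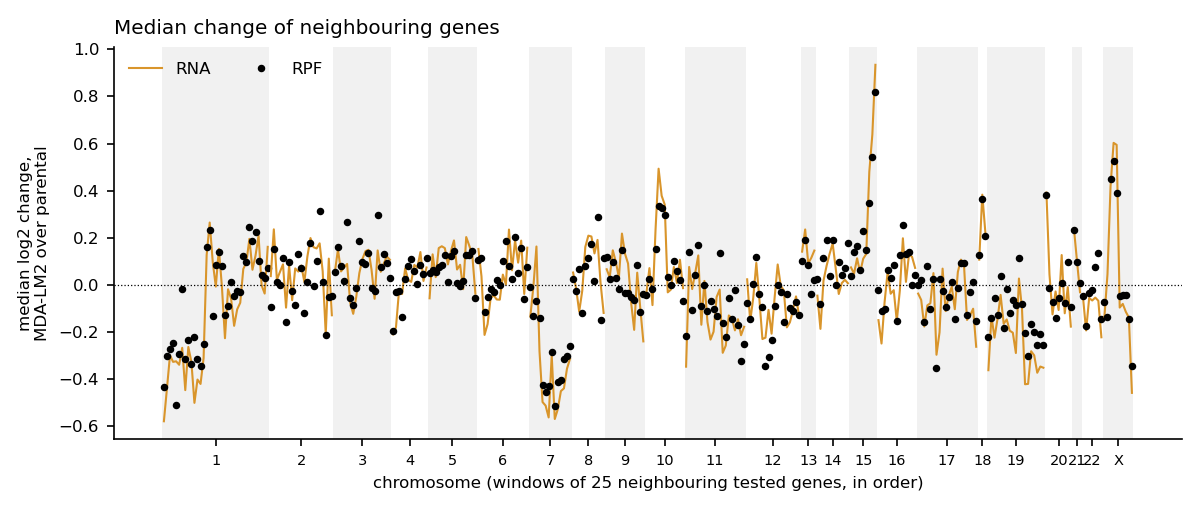
Median log2 change of the RPF value (points) and of the RNA value (line) in 318 windows of 25 neighbouring tested genes, in chromosome order, MDA-LM2 over parental cells. All 14 windows of chromosome 7 and the first 14 of chromosome 1 lie below 0, and the end of chromosome 15 reaches 0.82.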

How the data were processed

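Ribosome footprints and total RNA came from the same lysates of the parental and MDA-LM2 lines, with 2 libraries of each kind per line. The values deposited by the authors are normalised signals per transcript, that is, footprint counts scaled by median-of-ratios size factors, so the depth in reads is unknown and no counting interval is given. The submitters' processing notes name cutadapt 2.3, UMI-tools, Bowtie2 2.3.5, SAMtools and hg38, and the annotation release is not given in the sources used here. The table lists only transcripts with RNA of at least 5.32 in every library. The knockdown libraries were not analysed here, and no batch is given in the labels.

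Of the 10799 transcripts, 10575 (97.9%) were matched to GENCODE version 44 for symbols, coordinates and hydropathy classes. Log2 of the signal plus 1 was fitted for genes with a mean of at least 10 with limma 3.58.1 (R 4.3.3, statmod 1.5.0), with trended empirical Bayes moderation and Benjamini-Hochberg adjustment, and the procedure was tested on simulated data. Tables and figures used Python 3.11.15, pandas 2.3.3, numpy 2.4.6 and matplotlib 3.10.9. The study's methods describe the sequencing replicates as biological duplicates, and neither they nor the labels say whether these were separate cultures. P-values rest on the spread between these samples, with each gene's spread moderated towards that of genes of like level. They do not rest on a gene's own 2 libraries per line alone. An exact permutation test of 2 against 2 cannot go below 0.333.

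The members and the 45 lists were chosen with earlier results of these data known. Named genes were the 12 largest rises and falls by log2 change at a mean of at least 50 without overlap, the 10 largest gains and losses in value, up to 4 called members per list and direction, and the markers. ITGB1 and KRT81 were named after their values were seen, and a few genes that the rule names are not reported here. Alternatives were an added 0.5 or 5, no filter or a mean of at least 50, equal totals, quantile normalisation, a replicate block, robust or untrended moderation, leaving out each library, and a hydropathy of 1.8.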

Additional observations from a re-analysis of the deposited data

How the results depend on the processing

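The count of called genes was 1010. It stayed between 907 and 1074 with 0.5 or 5 added in place of 1, with no filter on low values, with quantile normalisation, with robust moderation and with equal totals, and 897 of the 1010 calls were kept with equal totals. Equal totals raised the share of rises among the calls from 41.6% to 54.3%, and the median of all genes shifted by 0.0543. With moderation that ignores the level of a gene the count fell to 132 (68 higher and 64 lower). At a mean of at least 50, 733 genes were called. Leaving out 1 library at a time gave 641 (without MDA-LM2 replicate 2) to 855 (without parental replicate 2) calls, with the lone library assumed to vary like the other line. A fit with the replicate number as a block (replicate block) called 1300 genes, 544 higher and 756 lower. The libraries share only a number, and deviations of same-numbered libraries correlated at 0.044. The larger of the counts of rises and falls thus changed sides with equal totals, as it did for 5 lists: proteases (7 and 8 to 9 and 7), further receptors (6 and 7 to 7 and 5), S100 proteins and annexins (2 and 5 to 3 and 2), carriers of sugars, acids and metals (2 and 4 to 4 and 3) and antigen presentation (0 and 1 to 2 and 1). No called gene picked by the naming rule reversed its sign under these alternatives. Genes that were not called, such as EGFR with a change close to that of all genes, were not checked for this. With 2 libraries per line, genes of low value had large errors, with a median SE of 0.37 at a mean of 10 to 20, and changes of moderate size there were not detectable.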
